A study of Mus musculus with 6 samples.

Results

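Ion channel genes were followed while P19 cells were taken from the undifferentiated state toward neurons, with and without the intracellular domain of the amyloid precursor protein (AICD). The genes were chosen by symbol: Kcn (potassium channels), Scn and a digit (sodium channels), Cacn (calcium channels), and Hcn and a digit (hyperpolarization-activated channels), with the epithelial Scnn genes left out. Of 120 such genes with a named probe, 79 had a probe that the scanner software marked well above background on 2 or more arrays of 6, and the other 41 did not. By the same filter, 13381 of 17178 genes of the array were kept. The choice by symbol is wider than voltage gating: 17 of the 79 genes encode inward rectifier (Kcnj) or 2-pore (Kcnk) potassium channels, whose main gate is not a voltage sensor, and others encode auxiliary subunits. One gene caught by its symbol, Kcnq1ot1, is an RNA and not a channel, and it did not pass the filter.

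Voltage-gated channels open when the membrane potential changes. Sodium channels start the action potential, potassium channels end it and set the resting potential, calcium channels couple it to secretion and gene activity, and Hcn channels carry a pacemaker current. Each has a pore-forming alpha subunit, and most have auxiliary subunits that bring it to the membrane or change its kinetics. The known roles given below come from mouse, rat or human tissue and are background, not results.

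P19 is a mouse embryonal carcinoma cell line that makes neurons after aggregation with retinoic acid. The samples were AICD/P19 cells, which express AICD, and pCDNA/P19 cells, which carry the empty vector and are called the vector line here. Both lines were sampled undifferentiated, after 4 days of aggregation in all-trans-retinoic acid at 5e-07 M (aggregated), and 2 days after replating (differentiated). Each of the 6 combinations of line and state had 1 single-colour array, so there was no replicate, and the sources used here do not say whether a line is 1 clone. Both undifferentiated arrays were on one slide and the other 4 arrays on a second slide, so for any step from the undifferentiated state slide and state cannot be told apart.

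Levels are normalized log2 signals, which are 0 at the 75th percentile of the array's spots, and 1 unit is a 2-fold difference. The percentile lay between 529 and 878 units of processed signal, and 62.0% to 65.9% of spots were well above background. Values in 3 states are always given in the order undifferentiated, aggregated, differentiated. A step between states is the mean of the 2 later arrays minus that of the 2 earlier ones, and its error is a standard error (SE) from a fit over 13381 genes in which the spread is the change of the line difference between states. Among genes used to check the samples, 11 of 12 neuron markers rose over the course and 6 of the 7 pluripotency markers that passed the filter fell. Their summed linear signal, in units of the array's 75th percentile, was 18.4, 92.1 and 168 in the AICD line and 17.8, 57.6 and 208 in the vector line for neuron markers. For pluripotency markers it was 138, 19.02 and 20.6 in the AICD line and 139, 11.1 and 5.12 in the vector line. App itself read -0.21, 0.93 and 2.03 in the AICD line and -0.46, 1.42 and 2.86 in the vector line, and as its probe may lie outside the expressed fragment this checks no label.

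Over the whole course, differentiated against undifferentiated, 28 channel genes rose and 27 fell at an adjusted p under 0.05, and 24 did not pass the test. Of all genes tested 20.1% rose and 41.3% fell. The filter lets in genes that are bright in one state only, which had to differ, so the counts describe the members and support nothing. Cacnb4 and Cacng1 passed it only through their differentiated arrays, and Kcnc4 and Kcnh5 only through their undifferentiated ones. The p-values given below for these genes support nothing either. Of the 44 channel genes well above background on all 6 arrays, 12 rose and 21 fell, where 19.8% of 11481 such genes rose and 42.1% fell. The median step of the 79 genes was 0.21, against -0.44 over all genes, so a gene at -0.44 moved with the array as a whole. In these mixed cultures a lower signal from fewer cells of a type and from less RNA per cell cannot be told apart. Without the vector differentiated array only 7 rises and 2 falls passed the test, and without the vector undifferentiated array 25 and 16 did.

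By family, all 7 sodium alpha genes, which form the pore, passed the test, 4 rising and 3 falling, with a median step of 3.26. Of the 5 calcium alpha1 genes 3 rose and 1 fell, and of the 3 alpha2delta genes 2 rose and 1 fell. Potassium families were divided: 6 of 18 voltage-gated (Kv) alpha genes rose and 5 fell, while 1 of 8 inward rectifiers rose and 3 fell. Beside these counts, 20.1% of all genes tested rose and 41.3% fell, and most of the families hold few genes.

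**Figure D1:**
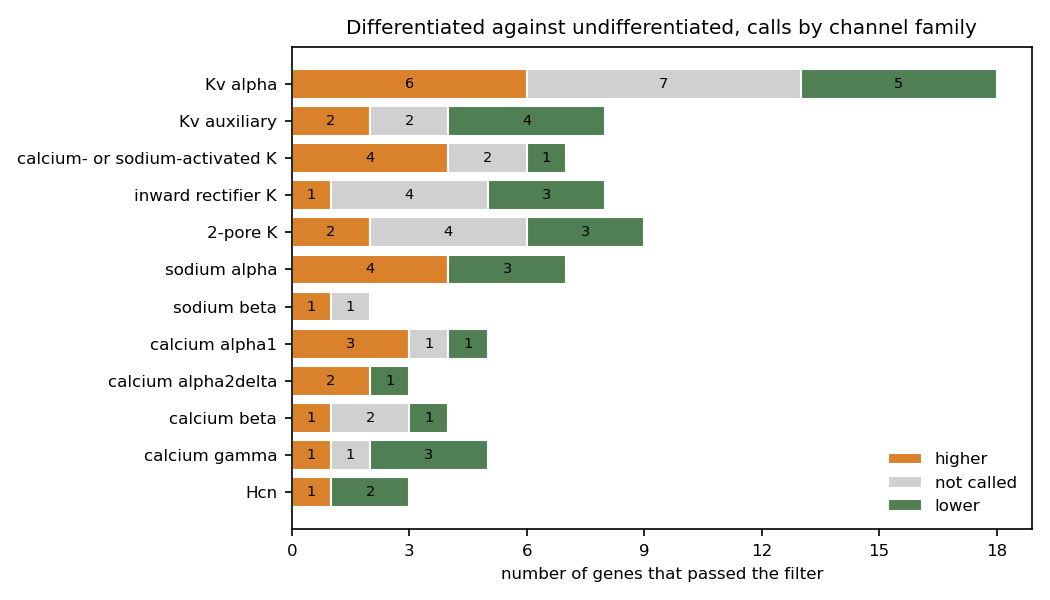
Number of channel genes per family (bars, x axis) that were higher, not called or lower in the differentiated than in the undifferentiated state at an adjusted p under 0.05 over both lines. Sodium alpha genes have 4 higher and 3 lower, Kv alpha genes 6 higher, 7 not called and 5 lower, and inward rectifiers 1 higher, 4 not called and 3 lower. Of all genes tested, 20.1% were higher and 41.3% lower.

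Promoter windows are shown for 4 genes whose behaviour the results turn on, 2 that rose (Scn1a, Kcnc1), 1 that fell (Kcnj3) and 1 that differed between the lines (Kcns3), chosen after their values were seen. They run from 250 bases before to 50 bases after the annotated start and are RefSeq sequences on GRCm38.p6, 5′ to 3′ on the gene's strand. Capitals mark a nuclear receptor half-site (AGGTCA or TGACCT), a GC box (GGGCGG or CCGCCC) or a TATA box (TATAAA or TTTATA), each searched on both strands. The windows are chr2:66440788-66441087 (minus strand) for Scn1a, chr7:46396218-46396517 (plus strand) for Kcnc1, chr2:55435720-55436019 (plus strand) for Kcnj3, and chr12:11150324-11150623 (minus strand), 1 of 2 listed, for Kcns3.
Scn1a: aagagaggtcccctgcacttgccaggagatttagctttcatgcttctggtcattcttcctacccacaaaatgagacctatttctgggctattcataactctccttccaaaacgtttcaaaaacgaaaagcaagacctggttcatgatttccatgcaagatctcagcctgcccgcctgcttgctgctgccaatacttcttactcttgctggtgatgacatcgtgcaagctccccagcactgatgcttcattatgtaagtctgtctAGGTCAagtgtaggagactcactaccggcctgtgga
Kcnc1: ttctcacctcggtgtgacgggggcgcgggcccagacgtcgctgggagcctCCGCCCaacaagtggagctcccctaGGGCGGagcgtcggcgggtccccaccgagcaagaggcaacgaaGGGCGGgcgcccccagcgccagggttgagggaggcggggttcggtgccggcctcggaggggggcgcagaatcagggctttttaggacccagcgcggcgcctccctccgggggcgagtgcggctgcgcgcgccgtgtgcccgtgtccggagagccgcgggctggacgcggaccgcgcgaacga
Kcnj3: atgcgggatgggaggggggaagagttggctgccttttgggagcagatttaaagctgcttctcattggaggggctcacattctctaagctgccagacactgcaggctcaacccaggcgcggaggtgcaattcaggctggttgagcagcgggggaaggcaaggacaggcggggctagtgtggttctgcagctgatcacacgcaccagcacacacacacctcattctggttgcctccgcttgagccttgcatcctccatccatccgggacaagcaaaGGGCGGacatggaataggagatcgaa
Kcns3: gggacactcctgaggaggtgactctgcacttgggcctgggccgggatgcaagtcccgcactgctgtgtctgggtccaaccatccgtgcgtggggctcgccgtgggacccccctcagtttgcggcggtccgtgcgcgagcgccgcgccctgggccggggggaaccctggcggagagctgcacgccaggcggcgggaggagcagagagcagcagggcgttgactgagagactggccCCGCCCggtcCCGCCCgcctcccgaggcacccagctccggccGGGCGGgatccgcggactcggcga

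The Scn1a window held 1 half-site and 5 CG pairs, and the Kcnc1 window 3 GC boxes and 41 CG pairs. The Kcnj3 window had 1 GC box and 10 CG pairs. The printed Kcns3 window had 3 GC boxes and 32 CG pairs, and the other Kcns3 window had 1 GC box and 9 CG pairs. A window was listed for 57 of the 79 channel genes (84 windows). The half-site was in 8.33% of the 24 windows of genes that rose, 7.69% of the 26 windows of genes that fell and 16.3% of all 32851 windows. A GC box was in 45.8%, 57.7% and 35.7% of the same windows, and a TATA box in 8.33%, 3.85% and 13.6%. Median CG counts were 14.5, 10.5 and 7. These matches describe letters in a window and say nothing of binding.

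Among sodium alpha genes the 4 that encode brain channels rose, while those that fell included genes best known from skeletal muscle and sensory neurons. Scn1a, a channel of inhibitory interneurons, read -5.79, -3.16 and -1.64 in the AICD line and -5.21, -2.70 and -1.20 in the vector line. Its step was 4.08 ± 0.15 (adjusted p = 0.00494), and it was already up on aggregation by 2.57 ± 0.15 (adjusted p = 0.00751). The 2 arrays of each state stood apart from those of the other states, with 1 of the 2 undifferentiated arrays not well above background. Scn2a, the early channel of the axon initial segment, read -6.09, -3.32 and -0.61 in the AICD line and -7.26, -4.83 and -0.51 in the vector line and was at least 38.7-fold higher in the differentiated state (adjusted p = 0.00579), since neither undifferentiated array was well above background. One other Scn2a probe gave a step of 6.81, dim arrays included, and another gave -1.26, so the probes of this gene disagree in sign.

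Scn3a, abundant in embryonic brain, read -7.11, -2.95 and -1.91 in the AICD line and -6.93, -2.72 and -1.39 in the vector line and was at least 8.01-fold higher in aggregated cells (adjusted p = 0.00668) and at least 18.2-fold higher in differentiated cells (adjusted p = 0.00494). The larger part of its log2 difference was there before replating. Scn8a, the channel of mature axon initial segments and nodes, was well above background on every array and read -0.068, 2.42 and 3.25 in the AICD line and 0.15, 1.36 and 3.36 in the vector line. It rose over the course by 3.26 ± 0.38 (adjusted p = 0.00781), with the AICD aggregated array 1.05 above the vector one.

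**Figure D2:**
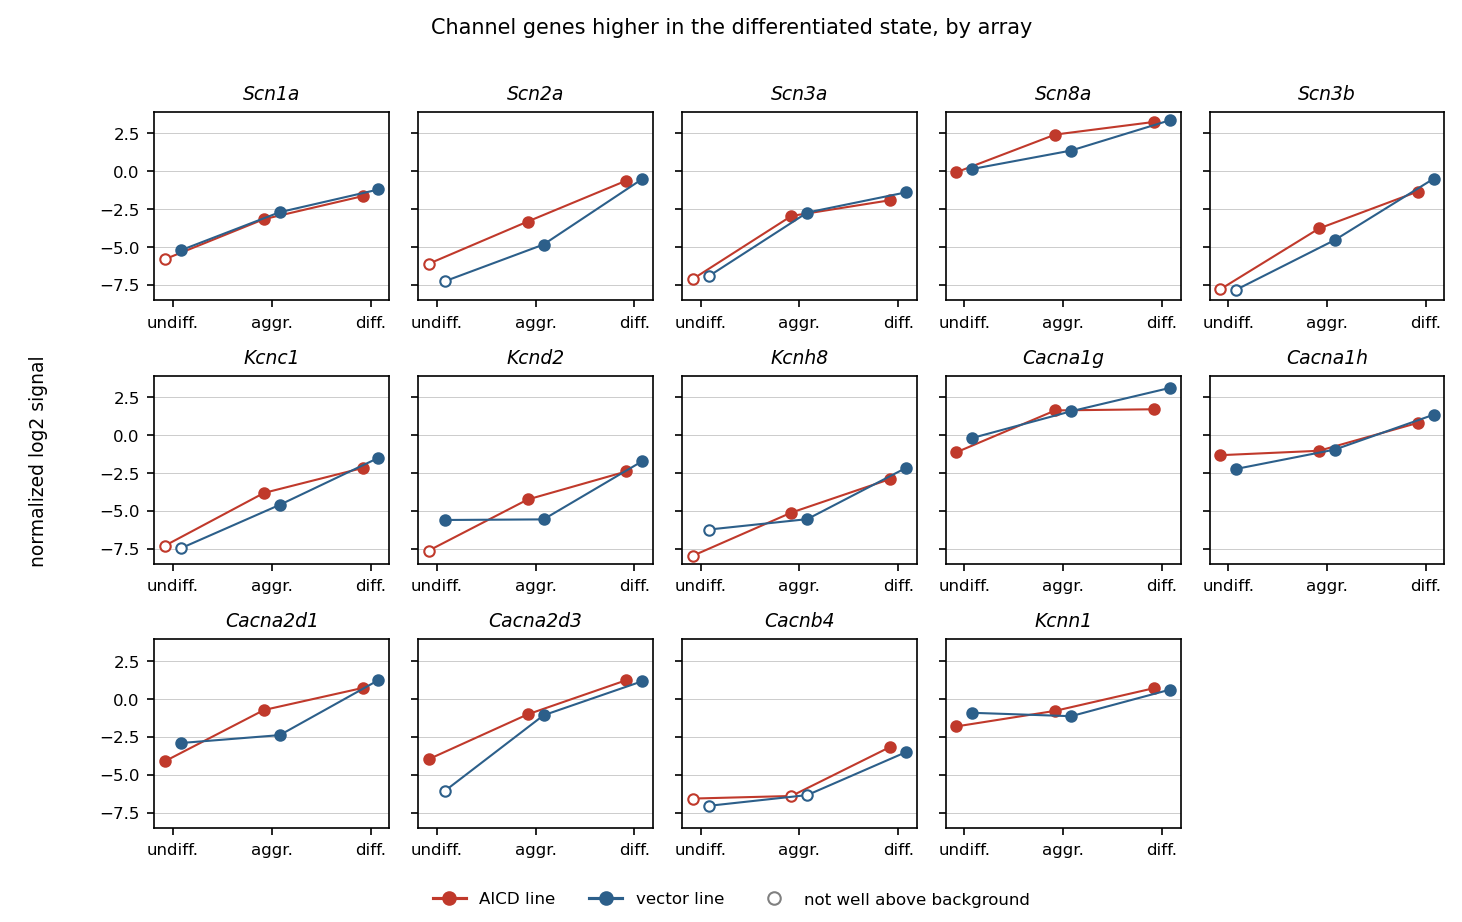
Normalized log2 signal (y axis) of 14 channel genes in the undifferentiated, aggregated and differentiated states, in the AICD line (red) and the vector line (blue), 1 array per point. Hollow points were not well above background; every gene shown is higher on both differentiated arrays than on either undifferentiated array.

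Scn4a, the sodium channel of skeletal muscle, read -1.24, -2.30 and -2.33 in the AICD line and -1.06, -2.47 and -2.41 in the vector line and fell by 1.22 ± 0.17 (adjusted p = 0.00917). It had already fallen by the aggregated state, where the step was -1.24 ± 0.17 (adjusted p = 0.0159). Scn10a, a channel of sensory neurons, was well above background on both undifferentiated arrays and on only 1 of the 4 later ones, with -1.15 as its step (adjusted p = 0.0115); with normexp background correction this call was lost. Among cardiac and muscle markers 3 of the 8 that passed the filter fell and 2 rose over the course, and their summed linear signal was 3.75, 1.05 and 1.86 in the AICD line and 5.73, 2.15 and 5.36 in the vector line. Their part in the sodium channel falls was not tested.

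Of the sodium beta subunits, which anchor the channel and speed its gating, Scn3b read -7.78, -3.77 and -1.34 in the AICD line and -7.82, -4.53 and -0.49 in the vector line. It was at least 3.21-fold higher in aggregated cells (adjusted p = 0.0135) and at least 30.3-fold higher in differentiated cells (adjusted p = 0.00506). The aggregation call was lost with normexp background correction. Both undifferentiated arrays lay below background and all 4 later arrays above it, and within each line the differentiated array was the highest. Scn2b did not pass the test in any step and read -3.37, -3.19 and -2.97 in the AICD line and -2.11, -3.61 and -3.52 in the vector line.

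Calcium channel pore genes of the low-voltage (T) type rose. Cacna1g read -1.13, 1.63 and 1.70 in the AICD line and -0.19, 1.57 and 3.11 in the vector line and rose by 3.07 ± 0.40 (adjusted p = 0.00853), of which 2.26 ± 0.40 (adjusted p = 0.0222) came with aggregation. In the AICD line it read nearly the same before and after replating, and the AICD minus vector difference was -1.41 in the differentiated state. Cacna1h read -1.32, -1.03 and 0.81 in the AICD line and -2.23, -0.95 and 1.34 in the vector line and rose by 2.85 ± 0.39 (adjusted p = 0.00910). The larger part of the step came after replating in both lines, at 1.84 in the AICD line and 2.30 in the vector line. Its other 2 probes gave whole-course steps of 0.62 and 0.87, of the same sign and smaller.

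The high-voltage genes were mixed. Cacna1a, the P/Q-type pore of presynaptic terminals, read -4.54, -5.24 and -3.17 in the AICD line and -3.40, -4.30 and -1.95 in the vector line: on aggregation it fell by 0.80 ± 0.16 (adjusted p = 0.0275), and it ended above its start by 1.41 ± 0.16 (adjusted p = 0.00769). Both calls were lost with normexp background correction, and its second probe gave a whole-course step of 0.033. Cacna1s, the skeletal muscle L-type pore, read -2.91, -4.30 and -4.47 in the AICD line and -2.96, -4.92 and -4.93 in the vector line and fell by 1.76 ± 0.20 (adjusted p = 0.00780). The neuronal and endocrine L-type gene Cacna1d passed no test and read -7.65, -6.59 and -4.46 in the AICD line and -3.19, -5.71 and -2.63 in the vector line, with the AICD line not well above background before the differentiated state. The vector line was above background throughout and higher in the undifferentiated and differentiated states. In the aggregated state it was higher by a bound of only 1.02-fold. There normexp gave an AICD minus vector difference of 0.10 and a second, dimmer probe 0.145, of the other sign.

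The alpha2delta subunits, which carry calcium channels to the membrane, held the largest median step of any family here, 4.49 over 3 genes. Cacna2d3 read -3.96, -1.01 and 1.25 in the AICD line and -6.06, -1.07 and 1.17 in the vector line and rose by 3.97 ± 0.60 (adjusted p = 0.0178) on aggregation and 6.22 ± 0.60 (adjusted p = 0.00723) over the course, with the vector undifferentiated array below background. Cacna2d1 read -4.09, -0.73 and 0.73 in the AICD line and -2.90, -2.38 and 1.25 in the vector line and rose over the course by 4.49 ± 0.75 (adjusted p = 0.0121). On aggregation it climbed in the AICD line by 3.37 and in the vector line by 0.52, and the lines met in the differentiated state. Cacna2d2 read 3.36, 2.72 and 1.56 in the AICD line and 3.59, 2.63 and 1.19 in the vector line and fell by 2.10 ± 0.21 (adjusted p = 0.00723) on its brightest probe, but its other 3 probes gave 2.77, 2.97 and 3.69, so no direction is settled for this gene.

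Of the cytoplasmic beta subunits, Cacnb4 was not well above background until the differentiated state and read -6.56, -6.39 and -3.16 in the AICD line and -7.04, -6.33 and -3.50 in the vector line. Only the differentiated arrays let it pass the filter, so its p-value supports nothing. It was at least 5.70-fold higher in differentiated than in undifferentiated cells (adjusted p = 0.00494). With normexp background correction the call was kept, but the log2 difference, 0.81, was smaller than this bound. The 2 other Cacnb4 probes, each well above background on 2 arrays, gave steps of 2.84 and 3.61. Cacnb1, the beta subunit of skeletal muscle, read -1.01, -2.07 and -2.15 in the AICD line and -0.80, -2.14 and -2.13 in the vector line and fell by 1.23 ± 0.16 (adjusted p = 0.00857), with a step of -1.20 ± 0.16 (adjusted p = 0.0156) on aggregation. Cacnb3 and Cacnb2 did not pass the test, with whole-course differences of 0.38 and -0.42.

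Among gamma subunits, Cacng1, a subunit of the muscle calcium channel, read -7.68, -5.44 and -4.11 in the AICD line and -7.82, -6.64 and -4.36 in the vector line. It was at least 3.03-fold higher in differentiated than in undifferentiated cells (adjusted p = 0.00698), a call lost with normexp background correction. Only its differentiated arrays let it pass the filter, so this p-value supports nothing. Cacng7 and Cacng8 are better known as auxiliary subunits of AMPA glutamate receptors. Cacng8 read -2.66, -4.38 and -3.64 in the AICD line and -2.46, -4.21 and -3.80 in the vector line and fell by 1.16 ± 0.17 (adjusted p = 0.0100); Cacng7 fell by 0.65 ± 0.17 (adjusted p = 0.0320), which leaves -0.21 after the shift of all genes. Cacng6 fell by 1.25 ± 0.21 (adjusted p = 0.0125), and Cacng5, at 1.96, did not pass the test.

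The Kv alpha genes that rose included Kcnc1, Kcnd2 and Kcnh8. Kcnc1, the delayed rectifier of fast-spiking neurons, read -7.28, -3.81 and -2.17 in the AICD line and -7.46, -4.60 and -1.50 in the vector line and was at least 3.10-fold higher in aggregated cells (adjusted p = 0.0142) and at least 16.1-fold higher in differentiated cells (adjusted p = 0.00543). The aggregation call was lost with normexp background correction. All 3 of its probes gave whole-course steps between 5.54 and 5.66. Kcnd2, the pore of the A-type current of dendrites, read -7.61, -4.24 and -2.39 in the AICD line and -5.59, -5.56 and -1.72 in the vector line and rose by 4.54 ± 0.84 (adjusted p = 0.0147), with the AICD undifferentiated array below background; its dimmer probe gave 1.81. On the brighter probe it was already higher on aggregation in the AICD line, and in the vector line only after replating. The dimmer probe, well above background on 2 arrays, did not show this, with a mean step of -0.047 on aggregation.

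Kcnh8, an Elk-type channel of brain, read -7.96, -5.10 and -2.89 in the AICD line and -6.23, -5.54 and -2.16 in the vector line and was at least 9.93-fold higher in differentiated than in undifferentiated cells (adjusted p = 0.00801). Kcnq3, a subunit of the M-current that restrains repetitive firing, read -5.17, -6.78 and -5.98 in the AICD line and -5.12, -6.46 and -5.26 in the vector line and was at least 1.62-fold lower in aggregated than in undifferentiated cells (adjusted p = 0.0176), a call lost with normexp background correction. Kcnd3 was at the edge of detection, well above background on 2 arrays, both of the vector line. In that line it was at least 1.51-fold higher in differentiated than in undifferentiated cells. The step over both lines passed the test (adjusted p = 0.0455), but it included dim AICD arrays and changed sign with normexp.

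Kcnh6, an Erg-type channel, read -3.66, -5.36 and -5.41 in the AICD line and -3.51, -5.03 and -5.73 in the vector line and fell by 1.98 ± 0.22 (adjusted p = 0.00763), with the AICD aggregated and the vector differentiated array not well above background. Kcnc4 and Kcnh5 were well above background on both undifferentiated arrays and on no later array, and were at least 1.88-fold lower (adjusted p = 0.0152) and at least 2.20-fold lower (adjusted p = 0.0497) in the differentiated state; the Kcnh5 call was lost with quantile normalization, the mean of probes, no filter or an intensity trend. Kcnq1 fell by 0.76 ± 0.20 (adjusted p = 0.0351), which leaves -0.32 after the shift of all genes, a call lost with an intensity trend. Kcna4 was at least 1.40-fold lower in aggregated than in undifferentiated cells (adjusted p = 0.0413), a call lost with normexp or with no filter, and it read -4.18 on the vector differentiated array. Kcnh2, the Erg channel of heart, stood between 0.24 and 0.68 on all 6 arrays.

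Of the 8 Kv auxiliary subunits 4 fell and 2 rose, which lies near the 41.3% of all genes that fell and the 20.1% that rose. Kcnip3, a calcium-binding partner of Kcnd channels that also binds DNA, read -0.78, -3.07 and -3.24 in the AICD line and -0.27, -3.42 and -3.78 in the vector line and fell by 2.99 ± 0.31 (adjusted p = 0.00747), with a step of -2.73 ± 0.31 (adjusted p = 0.0133) on aggregation. A second probe gave -2.19. Kcnab3 read -0.77, -2.70 and -2.27 in the AICD line and -0.87, -3.37 and -2.45 in the vector line and fell by 1.54 ± 0.21 (adjusted p = 0.00902), and Kcne1, a partner of Kcnq1, read -3.21, -4.40 and -4.75 in the AICD line and -2.69, -4.21 and -4.54 in the vector line and fell by 1.69 ± 0.17 (adjusted p = 0.00728). Kcnab2, a beta subunit of axonal Kcna channels, rose: it read -3.63, -2.13 and -1.91 in the AICD line and -3.29, -2.12 and -1.24 in the vector line, a step of 1.89 ± 0.22 (adjusted p = 0.00780). Kcnab1 fell by 2.65 ± 0.71 (adjusted p = 0.0356) from an undifferentiated AICD array 3.09 above the vector one, a call lost with no filter, and 3 of its 4 later arrays were not well above background. Kcne2 was at least 1.69-fold higher (adjusted p = 0.0351), which normexp did not keep.

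**Figure D3:**
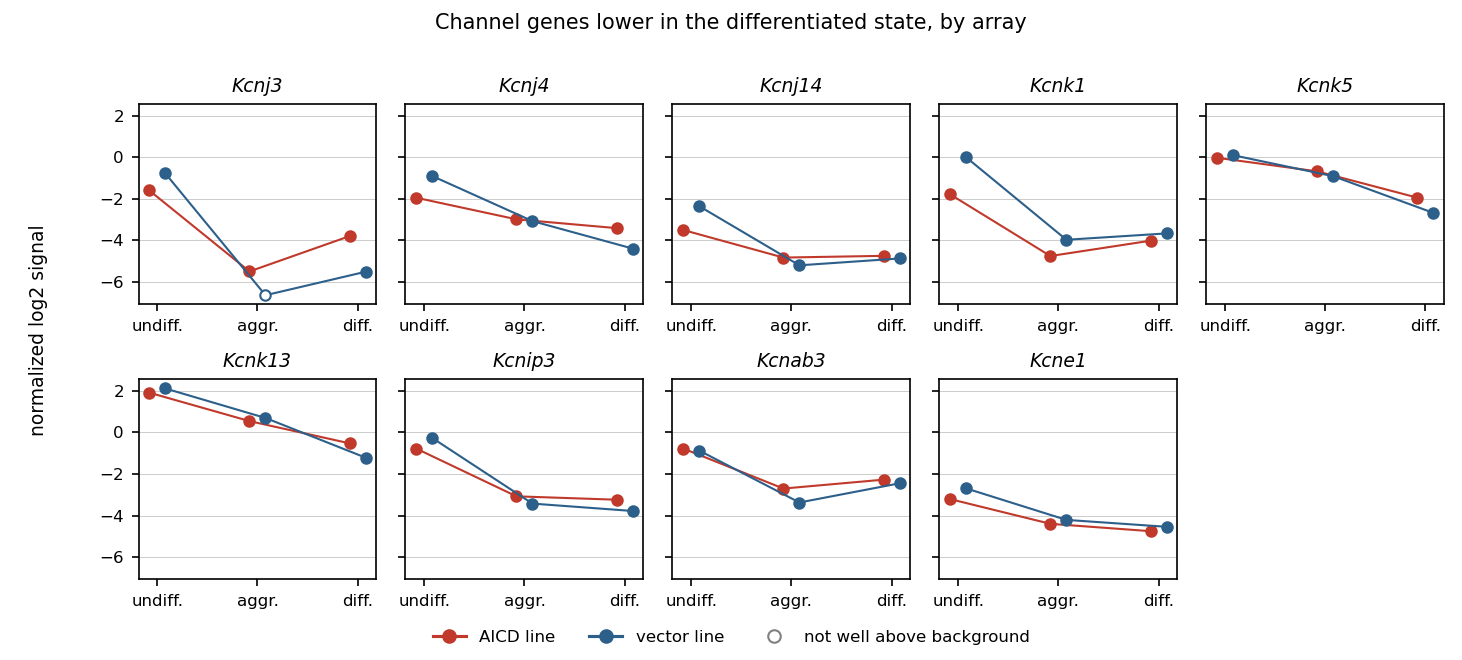
Normalized log2 signal (y axis) of 9 channel genes in the undifferentiated, aggregated and differentiated states, in the AICD line (red) and the vector line (blue), 1 array per point, hollow where not well above background. All 9 are lower on both differentiated arrays than on either undifferentiated array, and Kcnj3 has its lowest value in the aggregated state of each line.

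Among potassium channels opened by calcium or sodium, 4 of 7 rose and 1 fell, where 20.1% of all genes rose and 41.3% fell. Kcnn1 and Kcnn2 encode small-conductance channels of the after-hyperpolarization. Kcnn1 read -1.81, -0.78 and 0.72 in the AICD line and -0.91, -1.13 and 0.62 in the vector line and rose by 2.02 ± 0.36 (adjusted p = 0.0133). Kcnn2 read -4.16, -5.02 and -2.23 in the AICD line and -1.43, -3.12 and -0.53 in the vector line: on aggregation it fell by 1.28 ± 0.31 (adjusted p = 0.0386), a call normexp did not keep, and it rose over the course by 1.42 ± 0.31 (adjusted p = 0.0208). Every AICD array of Kcnn2 was below the vector array of the same state. Kcnmb4, the brain beta subunit of the large-conductance channel, read 0.66, 1.06 and 1.85 in the AICD line and -1.34, 0.34 and 2.53 in the vector line and rose by 2.53 ± 0.68 (adjusted p = 0.0362), a call lost with no filter. Kcnt2 fell by 1.12 ± 0.24 (adjusted p = 0.0202), and the related Kcnt1 was at least 4.24-fold higher in differentiated cells (adjusted p = 0.0200); another Kcnt1 probe gave -0.59, and the call was lost with normexp.

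Of the 8 inward rectifiers 3 fell, 1 rose and 4 did not pass the test, where 41.3% of all genes fell and 20.1% rose. Kcnj3, a subunit of the G protein-gated channel of heart and neurons, read -1.59, -5.49 and -3.79 in the AICD line and -0.77, -6.64 and -5.51 in the vector line and fell by 4.88 ± 0.68 (adjusted p = 0.0161) on aggregation, with the vector aggregated array not well above background, so that in the vector line the fall is only bounded, as at least 35.9-fold. Over the course it fell by 3.46 ± 0.68 (adjusted p = 0.0164). After replating the signal of Kcnj3 was partly regained in the AICD line. In the vector line the regain is only bounded, as at least 1.35-fold, and the step over both lines did not pass the test. Kcnj9, another G protein-gated subunit, read -6.47, -4.51 and -2.99 in the AICD line and -5.79, -7.11 and -2.76 in the vector line and was at least 7.51-fold higher in differentiated than in undifferentiated cells (adjusted p = 0.0379), a call lost with no filter. Kcnj4 and Kcnj14 encode strong rectifiers. Kcnj4 read -1.94, -2.98 and -3.41 in the AICD line and -0.90, -3.07 and -4.39 in the vector line and fell by 2.48 ± 0.52 (adjusted p = 0.0198), and Kcnj14 read -3.50, -4.82 and -4.74 in the AICD line and -2.35, -5.20 and -4.87 in the vector line and fell by 1.88 ± 0.43 (adjusted p = 0.0238). Kcnj8, Kcnj10, Kcnj11 and Kcnj12 passed no test between states.

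The 2-pore channels carry background potassium current, and all 9 genes with a probe passed the filter. Kcnk13 read 1.92, 0.55 and -0.52 in the AICD line and 2.12, 0.70 and -1.21 in the vector line and fell by 2.88 ± 0.29 (adjusted p = 0.00728). Kcnk5 read -0.021, -0.67 and -1.94 in the AICD line and 0.10, -0.91 and -2.67 in the vector line and fell by 2.35 ± 0.26 (adjusted p = 0.00758); in both genes the lines stayed within 0.74 of each other in every state. Kcnk1 read -1.78, -4.75 and -4.01 in the AICD line and -0.0004, -3.97 and -3.66 in the vector line and fell by 2.94 ± 0.39 (adjusted p = 0.00874), with its lowest values in the aggregated state. Kcnk12 read -2.79, -4.86 and -3.49 in the AICD line and -1.11, -4.96 and -2.72 in the vector line and on aggregation fell by 2.96 ± 0.46 (adjusted p = 0.0186). Kcnk4, a mechanosensitive channel of neurons, rose by 1.59 ± 0.17 (adjusted p = 0.00758), with the AICD undifferentiated array not well above background, and the acid-sensitive Kcnk3 rose by 1.21 ± 0.33 (adjusted p = 0.0361); both calls were lost with normexp, and a second Kcnk3 probe gave -0.033.

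All 3 Hcn genes that passed the filter were well above background on every array and passed the whole-course test. Over that course 20.1% of all genes rose and 41.3% fell. Hcn3 read -0.47, 0.61 and 1.71 in the AICD line and -0.27, 0.14 and 2.07 in the vector line and rose by 2.26 ± 0.26 (adjusted p = 0.00781). Hcn2, of brain and heart, read -1.96, -2.86 and -2.44 in the AICD line and -1.85, -3.10 and -2.59 in the vector line and fell by 0.61 ± 0.17 (adjusted p = 0.0392), which leaves -0.16 after the shift of all genes, a call lost with an intensity trend. Hcn4, of the cardiac pacemaker, read -1.41, -2.68 and -2.40 in the AICD line and -1.14, -2.88 and -2.35 in the vector line and fell by 1.10 ± 0.19 (adjusted p = 0.0124), while its second probe, bright on 2 arrays, gave 2.26, so its direction is not settled.

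On aggregation with retinoic acid more channel genes fell than rose. At that step 12 of 79 rose and 28 fell, against 14.3% and 27.9% of all genes. Of the 44 genes bright on all arrays 4 rose and 21 fell, against 13.9% and 26.5%. With normexp 5 of the 12 rises were lost, Scn2a, Scn3b, Kcnc1 and Cacng1 among them. All 12 that rose on aggregation were also up over the whole course, among them Scn1a, Scn2a, Scn3a, Scn8a, Scn3b, Cacna1g, Cacna2d3, Cacng1, Kcnc1 and Kcnab2. Of the 28 that fell, 23 were also down over the course, and Cacna1a and Kcnn2 were up over it. Both steps start from the same undifferentiated arrays, so such overlap is partly built in. The like share over all genes was not counted, so the overlap is not a trait of channel genes. With quantile scaling, rises made up 44.2% of the calls over all genes at this step, against 33.8% with the percentile scaling. Without the AICD aggregated array, and likewise without the vector one, 0 channel genes passed in either direction, and without the vector undifferentiated array 4 rises and 7 falls passed.

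After replating, the median channel gene was higher by 0.91, or 0.68 with dim genes at their bound, while the median over all genes moved by -0.082. No channel gene passed an adjusted p of 0.05 here with limma, nor did any other gene (0% of all genes higher and 0% lower). At an unadjusted p under 0.05 there were 37 of 79 channel genes and 4341 of 13381 genes. The smallest adjusted p among the channel genes was 0.0535, for Cacnb4, which passed the filter only through its differentiated arrays. By size alone, 19 of the 54 channel genes well above background on all 4 arrays were at least 2-fold higher in differentiated than in aggregated cells in both lines, and 3 were at least 2-fold lower. Over all 11795 such genes these shares were 5.04% and 3.12%. All 4 arrays of this step were on one slide. With normexp, which draws low signals together, 9 of the 54 were at least 2-fold higher.

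The 19 genes included Scn1a, Scn2a, Scn3a, Scn3b, Cacna1a, Cacna1h, Cacna2d1, Cacna2d3, Hcn3, Kcnc1, Kcnc2, Kcnd2, Kcnh8, Kcnk12, Kcnk3, Kcnk4, Kcnn1 and Kcnn2. Scn2a was 2.70 higher in the AICD line and 4.32 in the vector line. Scn3b was 2.44 higher in the AICD line and 4.04 in the vector line. Kcnn2 was 2.79 higher in the AICD line and 2.59 in the vector line. The 3 lower genes were Kcnk5, Kcnk13 and Cacna2d2, on the probe of Cacna2d2 that its others contradict.

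**Figure D4:**
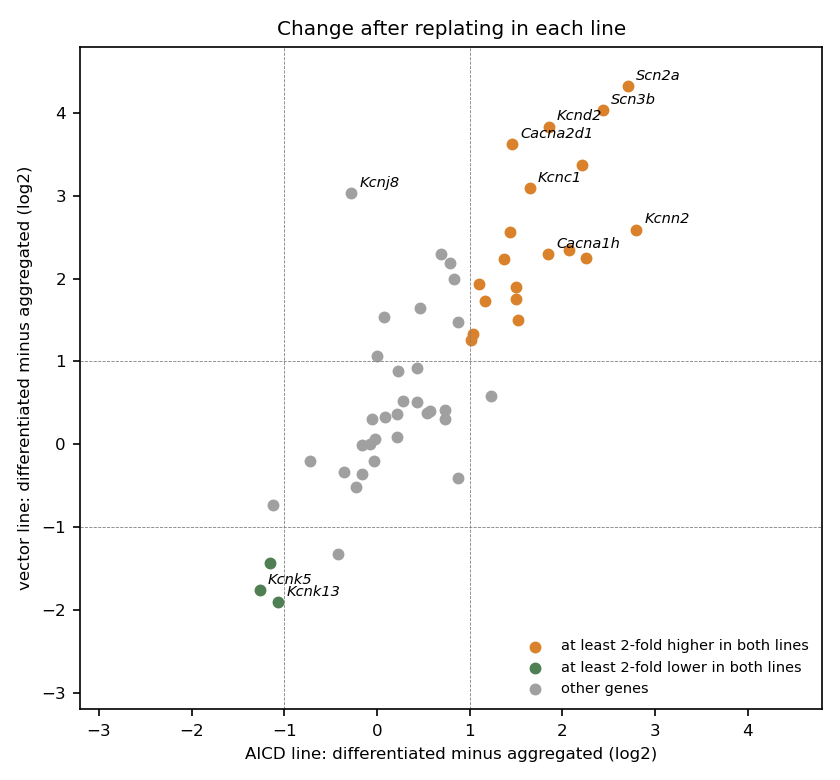
Difference between the differentiated and the aggregated array (log2) in the AICD line (x axis) and the vector line (y axis) for the 54 channel genes well above background on all 4 arrays; dashed lines mark 2-fold. The 19 genes at the upper right are at least 2-fold higher in both lines and the 3 at the lower left at least 2-fold lower, and Kcnj8 is higher in the vector line alone.

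Between the AICD and vector lines over the 3 states, no channel gene passed an adjusted p of 0.05 with limma, against 0.209% of all genes higher and 0.142% lower. At an unadjusted p under 0.05 there were 13 of 79 channel genes (16.5%) and 12.5% of all genes, and the 4 arrays of the second slide alone also gave 0. The median line difference was -0.00024 for channel genes and 0.0021 for all genes. The sign of the line difference was the same in all 3 states for 26 of the 79 genes, against 35.8% of all genes. Kcns3 and Kcnn2 were at least 2-fold apart in every state and bright on all 6 arrays, as were 1.38% of the 11481 genes bright on all of them. These 2 genes were picked out by that count after their values were seen.

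Kcns3 encodes a silent Kv subunit that modifies other Kv channels and forms none alone. It read 2.37, -0.85 and -0.16 in the AICD line and -4.20, -4.92 and -2.61 in the vector line, so every AICD array stood above every vector array. The AICD minus vector difference was 6.57, 4.07 and 2.45, and 4.36 ± 0.85 (adjusted p = 0.185) over the states. With normexp the 3 differences were 5.13, 2.60 and 1.99. Its promoter window is among those printed above; 1 probe measured the gene. In Kcnn2 the difference ran the other way, at -2.73, -1.90 and -1.70, and over the states it was -2.11 ± 0.25 (adjusted p = 0.0831). With normexp the Kcnn2 differences were -1.56, -0.57 and -1.39, so the aggregated one was under 2-fold. Cacna1a was lower in the AICD line by a like amount in each state, at -1.13, -0.95 and -1.22 and -1.10 ± 0.13 (adjusted p = 0.0831) over the states, but its second probe gave -0.21, -0.054 and -0.32, and normexp gave -0.61, -0.036 and -0.89.

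Within the undifferentiated state, 5 of the 56 channel genes bright on both arrays stood 2-fold or more above in the AICD line and 9 stood as far below, against 4.21% and 4.11% of 12555 genes. With 1 array each these are values with no test. The 5 higher genes were Kcns3, Kcnab1 (3.09), Kcnj8 (2.27), Kcnmb4 (2.00) and Kcnmb2 (1.72, or 0.88 with normexp). Kcnj8 is the pore of the ATP-sensitive channel of vascular smooth muscle, and Kcnab1 a beta subunit of Kcna channels. The lower ones included Kcnn2, Kcnc2 (-2.15), Kcnk1 (-1.78) and Kcnk12 (-1.68). By their bounds Cacna1d was at least 6.01-fold lower and Kcnk6 at least 3.15-fold lower in AICD cells, and Cacna2d3 was at least 3.82-fold higher. With normexp the differences were smaller than these bounds, at -1.20 for Cacna1d, -0.76 for Kcnk6 and 0.33 for Cacna2d3, and the dimmer Cacna1d probe gave -0.67.

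Among aggregated arrays the balance was the other way: 10 of 55 genes stood 2-fold or more above in the AICD line and 1, Kcnn2, as far below, against 4.21% and 3.12% of 11990 genes. Of these Scn2a, Scn8a, Kcnd2 and Cacna2d1 also rose over the course, while the whole-course step of Kcnc2, 1.30 (adjusted p = 0.224), did not pass the test. The AICD array was above the vector array by 1.52 for Scn2a, 1.05 for Scn8a, 1.31 for Kcnd2, 1.65 for Cacna2d1 and 1.01 for Kcnc2. With normexp Scn8a (1.04) and Cacna2d1 (1.35) stayed past 2-fold, while Scn2a (0.83), Kcnd2 (0.60) and Kcnc2 (0.58) did not. Second probes gave 1.38 for Scn2a, 0.66 for Scn8a, 1.45 for Cacna2d1, 0.14 for Kcnc2 and -0.63, on dim arrays, for Kcnd2. Beside them, the summed linear signal of the 12 neuron markers at that state was 92.1 in the AICD line and 57.6 in the vector line; its part in these differences was not tested. The others included Kcns3, Kcnj10 (2.44), Kcnj8 (2.19) and Kcnmb2 (1.08, or 0.82 with normexp). Kcnj10 is the main inward rectifier of astrocytes. The 7 glia markers that passed the filter summed to 4.92 in the AICD line and 3.32 in the vector line, and Gfap, Aqp4 and Sox10 did not pass it. The same markers summed to more in undifferentiated cells, 9.21 in the AICD line and 8.03 in the vector line, so the sum does not single out glia. Its part in the Kcnj10 difference was not tested.

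Kcna1, the Shaker channel of axons, had the largest bound in that state, at least 7.66-fold lower in AICD cells, whose array was not well above background. It read -4.46, -7.77 and -5.47 in the AICD line and -4.22, -2.80 and -1.73 in the vector line, so the lines were close in undifferentiated cells and apart afterwards. With normexp the aggregated and differentiated differences were -1.08 and -1.75.

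In the differentiated state 4 of 66 genes stood 2-fold or more above in the AICD line and 9 as far below, against 4.62% and 3.96% of 12282 genes. The higher ones included Kcns3, Kcnj12 (1.97) and Kcnj3 (1.71). The lower ones were Kcna1 (-3.74), Cacna1d (-1.83), Kcnn2, Cacna1g (-1.41), Cacna1a, Kcnj11 (-1.21), Kcnt1 (-1.13), Kcnj8 (-1.13) and Kcnk3 (-1.0). With normexp Kcns3 and Kcnj12 stayed at least 2-fold higher, and Kcna1, Kcnn2 and Cacna1g at least 2-fold lower. The others were under 2-fold, among them Kcnj3 (0.65), Cacna1d (-0.93), Kcnk3 (-0.64), Kcnt1 (-0.41) and Kcnj11 (-0.34). Other Kcnt1 probes gave 0.69 and -0.64, so its sign is not settled. Kcnj3 fell over the course and read higher in the AICD line at its end. At that state the pluripotency markers summed to 20.6 in the AICD line and 5.12 in the vector line, and the mesenchyme and smooth muscle markers to 9.15 in the AICD line and 40.3 in the vector line; their part in these differences was not tested.

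**Figure D5:**
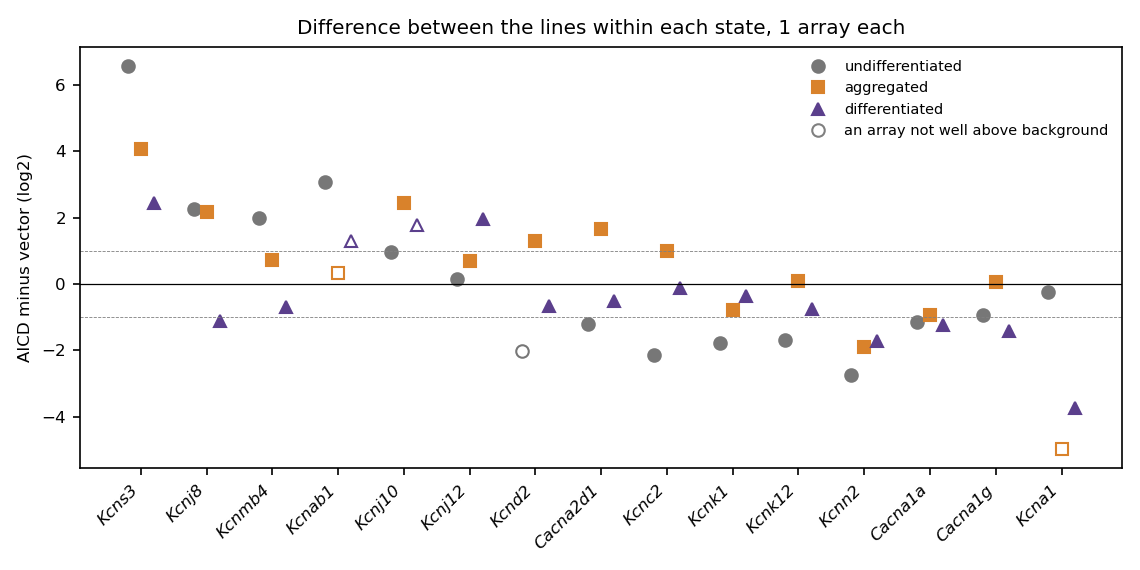
AICD minus vector difference (log2, y axis) of 15 channel genes in the undifferentiated (grey circles), aggregated (orange squares) and differentiated (purple triangles) states, 1 array per line and state; hollow symbols have an array not well above background and dashed lines mark 2-fold. Kcns3 is above 2-fold in all 3 states and Kcnn2 below it in all 3, while Kcnj8, Cacna2d1 and Kcnc2 change sign between states.

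Genes that bind, anchor or regulate these channels were read beside them, as a list of 31 of which 28 passed the filter. Over the whole course 13 of the 28 rose and 5 fell, where 20.1% of all genes rose and 41.3% fell. Their median step was 1.38, against -0.44 over all genes. On aggregation 6 rose and 5 fell, where 14.3% of all genes rose and 27.9% fell. Rest, which represses neuronal genes including sodium channels in other cells, read 3.16, 1.12 and 0.45 in the AICD line and 3.24, 1.54 and 0.13 in the vector line and fell by 2.91 ± 0.23 (adjusted p = 0.00624). Its cofactor Rcor1 did not pass the test. Ank3, which anchors sodium channels at the axon initial segment, rose by 2.04 ± 0.31 (adjusted p = 0.0101), and Nfasc, an adhesion protein of the same site, by 2.30 ± 0.51 (adjusted p = 0.0220). Sptbn4, the spectrin of that site, fell by 1.97 ± 0.17 (adjusted p = 0.00677). Unc79, a subunit of the sodium leak channel, rose by 4.71 ± 0.44 (adjusted p = 0.00711), and the calcium channel partner Stx1a by 2.76 ± 0.19 (adjusted p = 0.00540). Among axonal contactins, Cntn1 rose by 5.39 ± 0.77 (adjusted p = 0.00949), with the vector undifferentiated array below background. No partner gene passed the test between the lines.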

How the data were processed

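Total RNA from 6 samples of P19 cells was labelled with Cy3 and hybridised to 6 Agilent single-colour arrays of 45018 spots, 1639 of them controls. Per the file headers, the authors read the arrays with Agilent Feature Extraction 10.1.1.1; the processed signal used here is a deposited intensity, corrected for background and not scaled between arrays. A table of the authors' own values, blank for most probes and with 6 per-sample columns, was not used. Spots of a probe were averaged, log2 was taken, and the array's 75th percentile was subtracted. Of 41174 probes 24844 received a symbol through their RefSeq accession, and those well above background on at least 2 arrays were kept. The kept probe with the highest mean represented a gene (24 of the 79 channel genes had several).

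In limma 3.58.1 (R 4.3.3) each gene was fitted with terms for state and line, 2 residual degrees of freedom and a prior of 2.05, and p-values were adjusted by Benjamini-Hochberg over 13381 genes, two-sided. Nothing in the labels says that arrays came from separate cultures, so the spread may be technical. The number of arrays limits the precision. A fold against dim arrays is given as a lower bound, the mean of the bright arrays over the mean, per dim array, of the higher of its lowest signal well above background and the probe's own signal. The normexp alternative (offset 50) used median spot and background brightness, because no mean-signal column was at hand.

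Named were all genes that passed a test (some items are not reported here, but remain in the counts), up to 4 per family with the widest range, and within each state up to 4 per direction by line difference or bound; Kcnh2, Kcnj11 and Kcnmb2 were added after their values were seen, as were the alternatives for the count after replating. The members, lists and tests were chosen with earlier results of these data known. The fit was tested on simulated data.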

Additional observations from a re-analysis of the deposited data

Results flagged for a closer look

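In 6 comparisons of 5 channel genes an effect had opposite signs in the 2 settings compared, was at least 2-fold in each, and had all 4 of its arrays well above background. Sign changes that were smaller or on dimmer arrays are not listed here. With 1 array per line and state none of these differences was tested. Kcns3 went down over the whole course in the AICD line, by a step of -2.53, and up in the vector line, by 1.59, so the AICD step minus the vector step was -4.12. Kcna1 likewise had a whole-course step of -1.01 in the AICD line and 2.49 in the vector line, a difference of -3.51. For Kcnj8, AICD minus vector was -1.13 in differentiated cells against 2.27 in undifferentiated cells (a difference of -3.40) and against 2.19 in aggregated cells (a difference of -3.31). A second Kcnj8 probe gave -0.98 in differentiated cells, against 2.13 in undifferentiated and 0.95 in aggregated cells.

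For Kcnc2, AICD minus vector was 1.01 in aggregated cells, against -2.15 in undifferentiated cells, a difference of 3.16; its second probe gave 0.14 and -2.10. For Cacna2d1 it was 1.65 in aggregated cells, against -1.19 in undifferentiated cells, a difference of 2.85, and its second probe gave 1.45 and -1.83. Comparisons with the undifferentiated state also cross the 2 slides. All arrays of Kcnj8, Kcnc2, Cacna2d1 and Kcns3 were well above background, and for Kcna1 the AICD aggregated array was not.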

How the results depend on the processing

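No channel gene passed the test between the lines under any alternative run: normexp or quantile normalization, the mean of a gene's probes, no filter, detection on all 6 arrays, an intensity trend, the second slide alone, or any array left out. On aggregation the 12 rises became 7 with normexp and 4 with detection on all 6 arrays, and leaving out 1 array gave 0 to 11 rises and 0 to 26 falls (28 with all arrays). Over the whole course the 28 rises became 12 with detection on all 6 arrays, and leaving out 1 array gave 7 to 29 rises and 2 to 24 falls (27 with all arrays). For these filters fewer genes were tested, and the cause of the other changes was not tested. After replating, where no gene passed, 10 channel genes were higher and 3 lower with normexp, 9 and 3 with an intensity trend, and 3 and 2 with detection on all 6 arrays. The 14, 11 and 13 genes at least 2-fold apart between the lines in the 3 states became 8, 6 and 5 with normexp, and the 19 genes at least 2-fold higher after replating became 9. Among the differences of single genes that passed a test, normexp weakened 23 past the threshold and turned 1, Kcnd3 over the course (-0.22). Quantile normalization weakened 5. The mean of probes weakened 7 and turned 3, Cacna2d2 on aggregation (0.30) and over the course (1.83) and Hcn4 over the course (0.58). No separate paired analysis was run. The term for line in the fit already sets the states against each other within each line, and the term for state sets the lines against each other within each state. Genes not well above background in undifferentiated cells, such as Scn2a, Scn3b and Kcnc1, have only a lower bound, and their p-values rest on signals near background.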
